A study of Mus musculus with 6 samples.

Results

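The genes described here encode the contents and accessories of the cytotoxic granule: the granzymes *Gzma*, *Gzmb*, *Gzmc*, *Gzmk* and *Gzmm*, the pore protein perforin (*Prf1*), the granule membrane protein *Nkg7*, the granzyme inhibitors *Serpinb6b* and *Serpinb9*, and the granule proteoglycan serglycin (*Srgn*). They were chosen by symbol, as a list of 10 genes, and all 10 were present among the 35602 genes of the count table and the 34714 genes of the replicate 1 tables. CD4+ T cells from mouse spleen, stimulated with anti-CD3/CD28, were treated with MAPK13-IN-1, an inhibitor of the p38 family kinase Mapk13, or with its solvent DMSO, and their RNA was sequenced in 3 libraries per group. Replicates 2 and 3 of each group carry the genotype WT in their labels, came from poly-T bead libraries and were deposited as counts. The replicate 1 pair came from a stranded mRNA kit, has no genotype, dose or treatment protocol in its labels, and was deposited as normalised values. No strain, sex or age is given in the labels of either batch.

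For replicates 2 and 3 the labels place the addition of 17.1 µM inhibitor, or of DMSO, after day 1 of stimulation, whereas the series design has the compound present during 72 h of stimulation. Kit, processing and any difference in protocol cannot be told apart between the batches. Nothing in the labels says whether replicates came from separate cultures or animals, so p-values measure only the spread between these libraries, which may be technical. Library totals of the count table were 26874805 and 28487403 with DMSO and 33854760 and 32617702 with MAPK13-IN-1. A count of 3, the limit that a count of 0 allows for counting error alone, was worth 0.0845 to 0.116 CPM (counts scaled to library size with edgeR's TMM factors) in these libraries. Values of the replicate 1 pair are read as FPKM, fragments scaled by transcript length and sequencing depth. The unit was inferred here because none is named, and their depth is unknown.

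T cell transcripts were abundant in all libraries. *Cd4* was at 275 ± 0.672 CPM with DMSO and 275 ± 11.4 CPM with the inhibitor (SD, n = 2 per group), and at 118 and 146 FPKM in the replicate 1 pair. Of the 7 CD4 T cell markers *Cd5* had the largest CPM summed over the 4 libraries, without correction for length, although it was below *Cd4* with the inhibitor (177 against 275 CPM). Of these 7 genes, 6 were lower with the inhibitor and 0 were higher (edgeR, adjusted p under 0.05). Of all 16269 genes tested, 32.3% were lower and 31.5% higher. The summed level of the 7 markers went from 1596 and 1618 CPM in the DMSO libraries to 947 and 1065 CPM in the inhibitor libraries (marker sums are scaled by library totals alone). In the pair this sum was 1024 and 934 FPKM. Natural killer cell markers were at or near 0. *Klra8* had no count, 0 of 6 passed the filter on low counts, and their sum was at most 0.827 CPM in any library. The CD8 genes *Cd8a* and *Cd8b1* summed to 11.2 and 10.4 CPM with DMSO and 5.76 and 8.16 CPM with the inhibitor. Both were lower with edgeR, and 1 of the 2 passed with DESeq2. In the pair their sum was higher in the inhibitor library (8.39 FPKM, and 3.49 FPKM in the DMSO library), so that it too went opposite ways in the batches, and its part in the granule values was not tested. In bulk RNA, fewer cells of a type and less RNA per cell cannot be told apart.

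Cytotoxic lymphocytes store granzymes, a family of serine proteases, and perforin in secretory granules that are released onto a target cell. Perforin opens the target's membrane to the granzymes, which cleave proteins inside the target and start its death, while serpins in the cytosol protect the cell that made them. CD4+ T cells are mostly helper cells, but a part of them can acquire this program after activation, with granzyme B its best-known product.

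Transcripts of 3 of the 5 member granzymes, of perforin and of *Nkg7* were lower in MAPK13-IN-1-treated cells of the count table, and those of *Serpinb6b*, *Serpinb9* and serglycin were higher. The granzyme *Gzmm* did not pass and *Gzmk* was not tested. *Gzma* fell 4.80-fold, *Gzmb* 1.96-fold, *Gzmc* 7.85-fold, *Prf1* 2.35-fold and *Nkg7* 6.25-fold, whereas *Serpinb6b* rose 3.57-fold, *Serpinb9* 1.44-fold and *Srgn* 1.22-fold. In the replicate 1 pair, *Gzmb*, *Gzmc*, *Prf1* and *Nkg7* had higher values with the inhibitor, opposite to the count table. *Gzma* was lower, and *Serpinb6b*, *Serpinb9* and *Srgn* higher, in both batches. In the pair, which has 1 library per group, *Gzma* and *Srgn* differed by less than 1.5-fold. Of the counted genes, 8 of the 9 genes tested passed (3 higher and 5 lower), beside 63.8% of all 16269 genes tested, 31.5% higher and 32.3% lower. The median log2 fold change of the 9 genes was −0.97, and that of all genes 0.01. With libraries scaled by their totals in place of TMM 6176 of all genes were higher and 4302 lower, beside 5122 and 5252 with TMM. The median of all genes was then 0.14, and no called gene of the lists below changed direction.

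*Gzma*, a granzyme with trypsin-like specificity, was counted 269 and 226 times with DMSO and 66 and 69 times with the inhibitor. Scaled, these were 10.4 and 8.31 CPM with DMSO and 1.86 and 2.04 CPM with the inhibitor. Both inhibitor libraries lay below both DMSO libraries, far outside the spread within either group. Its log2 fold change was −2.26 (standard error, SE, 0.188, adjusted p = 3.11e-06, edgeR). *Gzmb*, which cleaves after aspartate and activates caspases, had 2398 and 2732 counts with DMSO and 1463 and 1950 with the inhibitor, or 93.0 and 100.5 CPM against 41.2 and 57.5 CPM. The inhibitor libraries differed from each other more than the DMSO libraries did, but the groups did not overlap. Its log2 fold change was −0.97 (SE 0.125, adjusted p = 6.86e-05, edgeR). *Gzmc*, one of several rodent granzymes encoded beside *Gzmb*, had 49 and 73 counts with DMSO and 6 and 14 with the inhibitor. It had the largest error of the members tested, at a log2 fold change of −2.97 (SE 0.418, adjusted p = 0.000124, edgeR), and the groups did not overlap. Without MAPK13-IN-1 replicate 3 its log2 fold change was −3.74.

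*Gzmm* and *Gzmk* did not pass. *Gzmm*, a granzyme that prefers methionine and leucine, had 82 and 88 counts with DMSO and 83 and 79 with the inhibitor, which after scaling were 3.18 and 3.24 CPM against 2.34 and 2.33 CPM. Raw counts therefore overlapped and scaled values did not, and the log2 fold change of −0.46 (SE 0.206, adjusted p = 0.0735, edgeR) missed the threshold. *Gzmk*, a granzyme of trypsin-like specificity encoded near *Gzma*, had 2 and 4 counts with DMSO and 7 and 0 with the inhibitor. It failed the filter, its groups overlapped, and a difference was not detectable at this depth. Of 5 further granzyme genes, 0 were tested: *Gzmg* and *Gzmn* were at 0 in all libraries of both batches, and the summed level of the 5 was at most 0.597 CPM.

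*Prf1*, the pore former, had 142 and 140 counts with DMSO and 76 and 81 with the inhibitor, or 5.51 and 5.15 CPM against 2.14 and 2.39 CPM. The replicates of each group lay close together and the groups stood apart. The log2 fold change was −1.23 (SE 0.192, adjusted p = 0.000252, edgeR). *Nkg7*, a protein of the granule membrane needed for efficient granule release, had 554 and 619 counts with DMSO and 104 and 141 with the inhibitor, or 21.5 and 22.8 CPM against 2.93 and 4.16 CPM. Both inhibitor libraries were far below the DMSO libraries. The log2 fold change was −2.64 (SE 0.158, adjusted p = 3.6e-07, edgeR).

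The inhibitors of granzymes moved the other way. *Serpinb6b*, a mouse serpin that inhibits granzyme A, had 1838 and 2035 counts with DMSO and 9352 and 8738 with the inhibitor, or 71.3 and 74.8 CPM against 264 and 258 CPM. Both inhibitor libraries were above both DMSO libraries by many times the spread within a group. The log2 fold change was 1.84 (SE 0.0594, adjusted p = 1.25e-08, edgeR). *Serpinb9*, a cytosolic serpin that inhibits granzyme B, had 2066 and 2249 counts with DMSO and 4258 and 3874 with the inhibitor, or 80.1 and 82.7 CPM against 120.0 and 114 CPM. The rise was smaller than that of *Serpinb6b* and the groups again stood apart, with a log2 fold change of 0.53 (SE 0.0625, adjusted p = 3.81e-05, edgeR). *Srgn*, whose glycosaminoglycan chains hold granzymes and perforin in the granule core and which blood cells of many lineages make, had 20523 and 22179 counts with DMSO and 34752 and 33537 with the inhibitor. After scaling it was at 796 and 816 CPM against 979 and 990 CPM. This was the smallest change of those that passed, at 0.29 (SE 0.0461, adjusted p = 0.000299, edgeR), with no overlap.

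**Figure D1:**
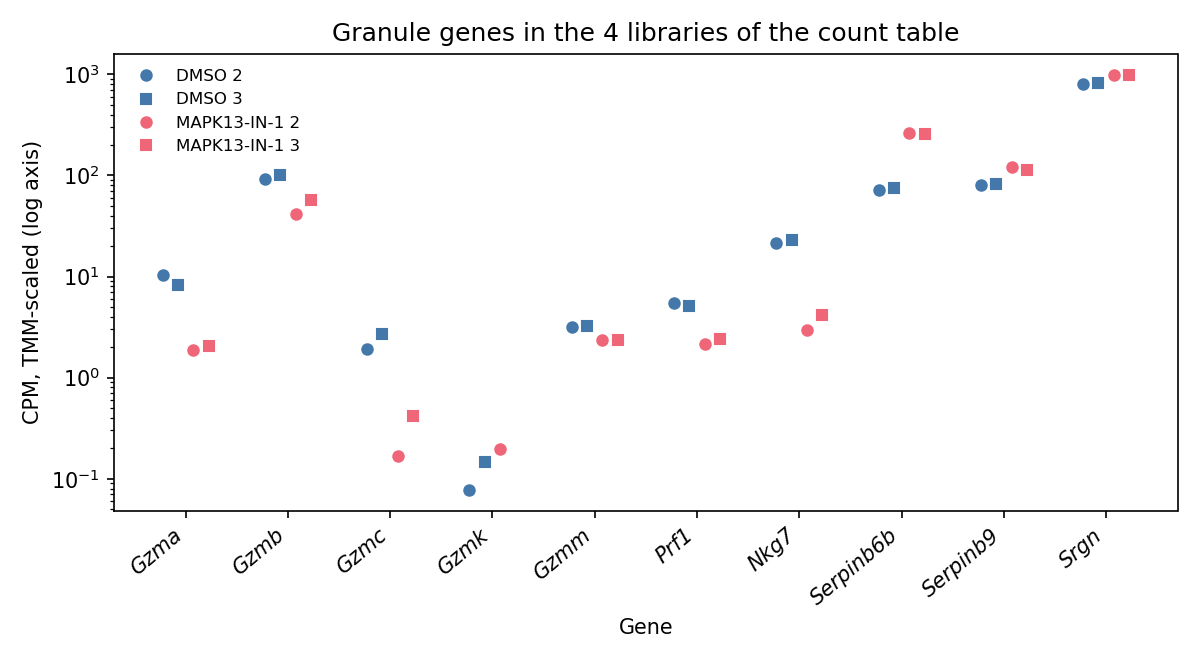
TMM-scaled CPM of the 10 genes (x axis) on a log axis (y axis), 1 point per library, blue for DMSO and red for MAPK13-IN-1, circles for replicate 2 and squares for replicate 3. *Gzmb* lies at 93.0 and 100.5 CPM with DMSO and 41.2 and 57.5 CPM with the inhibitor, *Serpinb6b* rises to 264 and 258 CPM, and the 0 of *Gzmk* in MAPK13-IN-1 replicate 3 cannot be drawn on this axis.

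Levels can be ordered between genes only per length, so CPM was divided by each gene's exonic length (GENCODE M21) to give RPKM. In the DMSO libraries *Srgn* was at 367 ± 6.33 RPKM (SD, n = 2), *Gzmb* at 67.4 ± 3.67 and *Serpinb6b* at 32.3 ± 1.11. *Nkg7* (24.2 ± 0.988 RPKM) and *Serpinb9* (23.3 ± 0.522 RPKM) did not differ beyond their spread. *Gzma* followed at 9.32 ± 1.49 RPKM, and *Gzmc*, *Gzmm* and *Prf1*, at 2.56, 2.18 and 2.06 RPKM, lay within the spread of *Gzmc*, with *Gzmk* last at 0.0809 RPKM. With the inhibitor, *Serpinb6b* (115 ± 1.76 RPKM) stood above *Gzmb* (34.4 ± 8.04 RPKM), which did not differ beyond its spread from *Serpinb9* (33.5 ± 1.14 RPKM). *Nkg7* was at 3.88 ± 0.952 RPKM and *Prf1* at 0.877 ± 0.0682 RPKM.

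In the replicate 1 pair, with 1 library per group and no replicate check, the order of levels with DMSO was led again by *Srgn* at 453 FPKM, followed by *Serpinb6b* at 40.7, *Gzmb* at 36.2, *Serpinb9* at 31.8 and *Nkg7* at 13.0 FPKM. *Nkg7* was at 111 FPKM in the inhibitor library and *Gzmb* at 104 FPKM, so that both were higher there. On the scale of log2(FPKM + 1), which understates the change of low genes, the ratios were 3.00 for *Nkg7* and 1.505 for *Gzmb*. *Prf1* went from 0.220 to 1.55 FPKM and *Gzmc* from 0.318 to 0.918 FPKM, with ratios of 1.06 and 0.54 that rest on values near the low end. *Serpinb6b* reached 173 FPKM, *Serpinb9* 92.1 FPKM and *Srgn* 632 FPKM in the inhibitor library, with ratios of 2.06, 1.51 and 0.48. *Gzma* was at 3.34 and 2.37 FPKM, the only member with a lower value in the inhibitor library, at a ratio of −0.36. *Gzmm* (1.01 and 1.33 FPKM) and *Gzmk* (0.356 and 0.551 FPKM) were low in both libraries. Of the 7 members at 1 FPKM or more in both libraries, 4 were over 1.5-fold higher and 0 over 1.5-fold lower, beside 13.8% and 7.47% of all 10448 genes at that level.

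The opposite directions were not particular to the granule genes by count. Of the 6 called members at 1 FPKM or more in both libraries of the pair, 2 had the opposite sign there (*Gzmb* and *Nkg7*), beside 35.5% of all 7234 called genes at that level. *Prf1* and *Gzmc*, below 1 FPKM with DMSO, were opposite as well. Whether the batches differ in these genes was not tested, since the tables were normalised separately and the pair has no replicate.

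**Figure D2:**
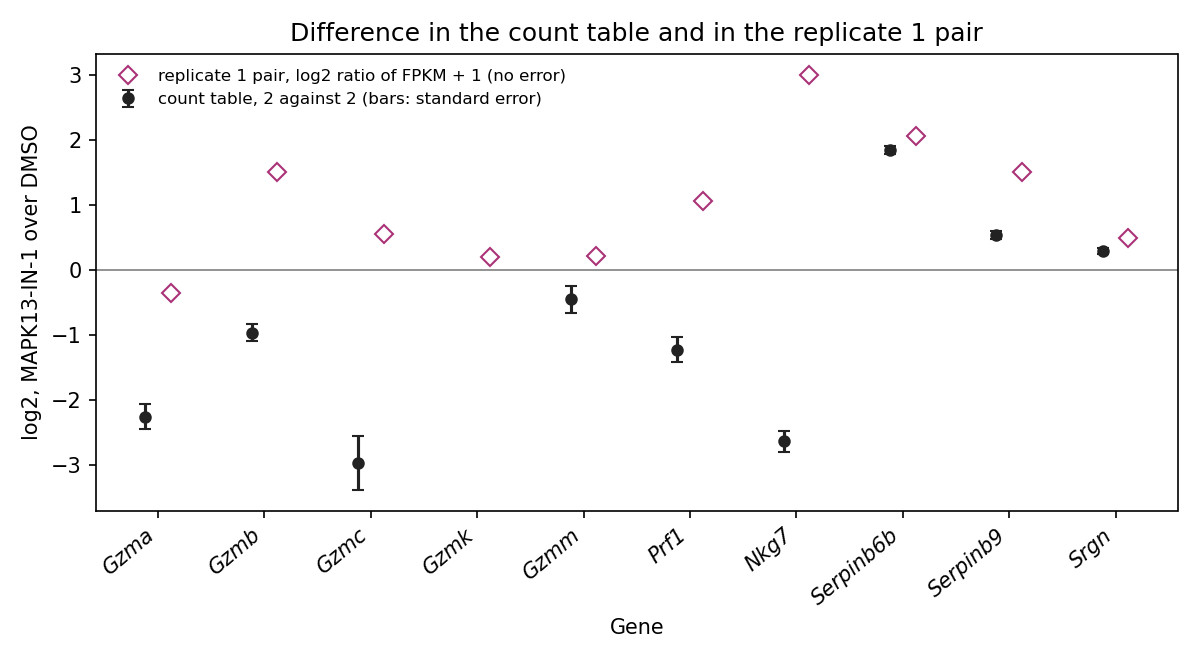
Difference of MAPK13-IN-1 from DMSO on a log2 scale (y axis) for the 10 genes (x axis): filled circles with standard errors are edgeR estimates from 2 against 2 libraries, and open diamonds are log2 ratios of FPKM + 1 from the replicate 1 pair, which have no error. *Nkg7* lies at −2.64 and 3.00 and *Gzmb* at −0.97 and 1.505, whereas *Serpinb6b* lies at 1.84 and 2.06, and *Gzmk* has no circle because it was not tested.

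In the count table, other genes of the granule pathway showed no common direction. The counts of this and each list below stand beside 31.5% higher and 32.3% lower of all 16269 genes tested. Among proteases and lysosomal proteins of the granule 6 of 10 tested were higher and 3 lower, with a median log2 fold change of 0.34. *Ctsc*, the protease that activates granzymes by removing their propeptide, was at 80.3 ± 3.15 CPM with DMSO and 135 ± 10.1 CPM with the inhibitor (SD, n = 2 in each), which is 0.75 on the log2 scale (adjusted p = 7.28e-06, edgeR). *Ctsh* and *Ctsb*, further cathepsins, rose by 1.34 and 0.89, and *Calr*, a chaperone also found in granules, fell by 1.05 on the log2 scale. Of 16 genes of the exocytosis machinery 7 were higher and 5 lower (median 0.08), or 8 and 4 with library totals. *Unc13d*, the priming factor of granule fusion, fell from 185 ± 10.5 to 60.6 ± 4.53 CPM, or −1.61 on the log2 scale (adjusted p = 7.37e-08, edgeR), and was at 37.9 and 39.7 FPKM in the pair. *Stxbp2*, the partner of *Stx11* in fusion, fell by 0.64, whereas *Arl8b*, a GTPase of lysosome transport, and *Stx11* rose by 0.44 and 0.47 on the log2 scale. Of 15 genes that build the glycosaminoglycan chains of serglycin 3 were higher and 4 lower (median −0.10), or 4 and 4 with library totals, with *Chst12*, a chondroitin sulfotransferase, at 0.80 and *B3gat3*, an enzyme of the linker region, at −0.69. In the pair most genes of these lists had a higher value with the inhibitor: 9 of 10 proteases and lysosomal proteins, 14 of 16 genes of exocytosis and 11 of 15 of glycosaminoglycan synthesis (median log2 ratios 0.49, 0.18 and 0.21 over the 10, 14 and 13 at 1 FPKM or more in both libraries, and 0.05 over all 10448 genes at that level). Of all 34714 genes of the pair, those at 0 included, 13671 were higher and 8265 lower.

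The other intracellular serpins also had no common direction in the count table, with 1 of 6 tested higher and 2 lower (median −0.00483), or 2 and 2 with library totals. *Serpinb6a*, a relative of *Serpinb6b*, rose by 0.69 and *Serpina3g* fell by 0.37 on the log2 scale. *Serpinb2* had 13 and 17 counts with DMSO and none with the inhibitor, at least 6.53-fold lower when set against 3 counts per library. In the pair 6 of the 10 listed had a higher value with the inhibitor and 2 a lower one (median log2 ratio 1.02 over the 3 at 1 FPKM or more), and *Serpinb6a* was at 11.6 and 28.7 FPKM. *Serpina3g* went from 29.1 to 60.2 FPKM there, opposite to the count table.

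Genes of cytotoxic CD4+ T cells other than the members were lower for 6 and higher for 2 of 14 tested in the count table (median −0.70). The chemokine *Ccl4* fell from 28.8 ± 1.37 to 4.47 ± 1.02 CPM, or −2.69 on the log2 scale (adjusted p = 2.1e-07, edgeR), and the adhesion receptor *Crtam* fell by 1.61 and the receptor *Slamf7* by 0.83. *Ifng*, the effector cytokine, fell by 1.03, whereas the chemokine *Ccl5* rose by 1.89. In the pair 13 of these 14 had a higher value with the inhibitor (median log2 ratio 1.73 over the 9 at 1 FPKM or more, and 0.05 over all genes at that level), among them *Ccl4* (21.9 to 118 FPKM), *Crtam* (5.11 to 19.2 FPKM) and *Ifng* (16.4 to 92.6 FPKM). Of 10 cytokine and receptor genes that feed granzyme expression, 9 were lower and 0 higher (median −1.10). *Il2ra* and *Il2rb*, subunits of the interleukin 2 receptor, fell by 1.27 and 1.06 on the log2 scale, and *Il12rb1*, a subunit of the interleukin 12 receptor, fell by 1.54. *Il12rb2*, the other subunit of the interleukin 12 receptor, fell by 1.14. In the pair 7 of the 10 had a higher value with the inhibitor and 3 a lower one (median log2 ratio 0.26). *Il12rb2* went from 12.4 to 29.4 FPKM there, opposite to the count table, *Il2rb* was at 194 and 198 FPKM, and *Il2ra* went from 384 to 237 FPKM. Of 18 regulators of granzyme and perforin expression 5 were higher and 4 lower (median −0.08), or 7 and 2 with library totals, with *Stat4* at 0.74, *Irf4* at −0.65 and *Zbtb7b*, the CD4 lineage factor, at −0.74. In the pair 14 of the 18 had a higher value with the inhibitor (median log2 ratio 0.40 over the 17 at 1 FPKM or more).

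The 3 genes whose centred log2(CPM + 0.5) lay nearest to that of *Gzmb* over the 4 libraries were *Igsf23*, *Gm32081* and *Mus81*, at Euclidean distances of 0.0488, 0.0510 and 0.0525. *Igsf23* had 345 and 400 counts with DMSO and 207 and 289 with the inhibitor, and *Gm32081* had 20 and 23 against 3 and 10. On edgeR's log CPM with a prior count of 2, tried after these genes had been seen, the nearest were *Gm40768*, *Igsf23* and *Ltbp3*, so that 1 of 3 was the same.

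Marker transcripts of other cell types differed between the groups, although the cells had been isolated with a kit for mouse CD4 T cells. Such a kit is meant to leave other cells behind. A sum that rests mostly on 1 gene does not show that such cells were present. The part of other cells in the granule values was not tested. Of 8 B cell markers 6 were higher and 1 lower, and their summed level was 872 and 850 CPM with DMSO and 1165 and 1165 CPM with the inhibitor, with *Pax5* the largest in CPM over the 4 libraries together (no correction for length), while in the pair the sum was 50.1 and 35.2 FPKM. All 4 plasma cell markers tested were called, 3 higher and 1 lower, with *Mzb1* the most abundant. Their sums were 154 and 138 CPM against 217 and 228 CPM. In the pair 3 of the 4 had a higher value with the inhibitor and 1, *Mzb1* (21.8 and 10.0 FPKM), a lower one. Of the 4, only *Mzb1* was at 1 FPKM or more in both libraries, and the sum of 23.3 and 17.5 FPKM was mostly *Mzb1*. Of 6 macrophage markers 5 were higher and 0 lower, with sums of 13.1 and 11.4 CPM against 43.8 and 36.3 CPM that were mostly *Cd68*. In the pair the sum was 2.93 and 9.10 FPKM, of which *Cd68* made 2.72 and 7.70 FPKM. Only *Cd68* was at 1 FPKM or more in both libraries. Mast cells and basophils also keep serglycin and proteases in granules. Of 9 markers of these cells 2 were tested and both were higher. Their sum of 2.83 and 2.74 CPM against 32.2 and 34.03 CPM was mostly *Kit*, and *Mcpt8*, *Fcer1a*, *Mcpt4*, *Tpsb2* and *Prss34* had no count in any library of the table. In the pair the sum was 0.107 and 0.675 FPKM.

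Erythroid markers were higher in 5 of 5 tested (5.95 and 5.13 CPM against 91.7 and 64.4 CPM in sum, with *Hbb-bs* the most abundant). Both megakaryocyte and platelet markers tested were higher, at sums of 9.53 and 8.64 CPM against 18.1 and 19.1 CPM. These sums were mostly *Itga2b*, and *Ppbp* was at 0. In the pair the erythroid sum was 0.587 and 1.65 FPKM, and that of megakaryocytes and platelets 0.965 and 1.95 FPKM. Of 8 neutrophil markers 1 was tested, *Mpo*, which was higher but did not pass with DESeq2 (2 and 2 counts with DMSO against 17 and 16). The sum of the 8 was at most 1.23 CPM, and *S100a9* was at 0. The regulatory T cell factor *Foxp3* was lower (log2 fold change −1.44, adjusted p = 5.9e-07, edgeR) and *Ikzf2* did not pass. *Foxp3* was at 13.6 and 14.6 FPKM in the pair. The symbols chosen for gamma delta T cells were not among those of the table. Of 7 housekeeping genes 4 were lower and 0 higher (median −0.33), and with library totals 1 of the 7 was higher.

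By position, *Gzmb* (chr14:56258838-56262260) and *Gzmc* (chr14:56231441-56234656) lay in the granzyme cluster of chromosome 14 (GRCm38, minus strand), and *Serpinb6b* (chr13:32965209-32979067) and *Serpinb9* (chr13:33003250-33017957) were neighbours in a serpin cluster of chromosome 13 (plus strand). Copies within these clusters share sequence, so counting could have split reads between them. Of the 50-base stretches in the exons of *Gzmc*, 4.14% also occurred in another gene. This share was 2.92% for *Serpinb6b*, 0.378% for *Serpinb9* and 0 for the other 7 members. *Gzmk* overlapped *Esm1* on the opposite strand over 8440 bases, and counting by strand is not stated for the count table.

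Promoters of the members were searched on both strands for letters bound by factors known from cytotoxic genes, over the 250 bases before each start (RefSeq, GRCm38.p6). Promoter sequences were found for all 10 genes, 12 in number. TGTGGT (Runx) was in 7 of the 12, and in 14% of all 32851 promoters. GGTGTGA (T-box) was in 3 of the 12 and in 3.33% of all, TTCNNNGAA (STAT) in 2 and in 7.02%, TGANTCA (AP-1) in 1 and in 6.75%, TGACGTCA (CRE) in 1 and in 1.55%, and TCAAAG (TCF/LEF) in 1 and in 13.8%. Of the 3 genes that rose in the count table, *Serpinb6b* and *Serpinb9* had none of the 6 in their promoters, and *Srgn* had TGTGGT in 1 of its 2 promoters. *Gzmm*, which did not pass, also had TGTGGT in 1 of its 2 promoters. The share of all promoters with none of the 6 was not counted. A match describes letters in this window and is neither a site in use nor a cause. The promoters of the granzymes and of perforin that fell in the count table are shown 5′ to 3′ on the strand of the gene, at chr13:113100982-113101231 (minus strand) for *Gzma*, chr14:56262335-56262584 (minus strand) for *Gzmb*, chr14:56234658-56234907 (minus strand) for *Gzmc* and chr10:61297586-61297835 (plus strand) for *Prf1*, with matches in capitals (a match on the other strand appears as its reverse complement).
Gzma: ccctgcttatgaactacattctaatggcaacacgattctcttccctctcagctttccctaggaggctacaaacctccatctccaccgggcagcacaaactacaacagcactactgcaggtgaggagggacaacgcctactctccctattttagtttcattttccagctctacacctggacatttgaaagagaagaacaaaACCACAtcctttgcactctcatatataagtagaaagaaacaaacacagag
Gzmb: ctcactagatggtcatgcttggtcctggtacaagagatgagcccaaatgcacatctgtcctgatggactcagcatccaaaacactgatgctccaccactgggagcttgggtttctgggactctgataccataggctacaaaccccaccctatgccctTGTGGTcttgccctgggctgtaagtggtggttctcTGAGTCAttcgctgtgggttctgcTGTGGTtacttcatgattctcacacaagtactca
Gzmc: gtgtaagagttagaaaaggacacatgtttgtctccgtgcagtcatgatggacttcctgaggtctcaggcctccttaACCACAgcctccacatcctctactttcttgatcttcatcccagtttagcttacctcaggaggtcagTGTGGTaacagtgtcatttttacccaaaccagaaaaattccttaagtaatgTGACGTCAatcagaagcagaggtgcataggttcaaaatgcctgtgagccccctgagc
Prf1: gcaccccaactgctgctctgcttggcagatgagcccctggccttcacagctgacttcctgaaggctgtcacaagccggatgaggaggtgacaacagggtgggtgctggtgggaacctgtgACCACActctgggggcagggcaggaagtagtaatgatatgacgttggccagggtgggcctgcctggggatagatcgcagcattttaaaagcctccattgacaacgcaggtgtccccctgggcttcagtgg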

How the data were processed

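RNA-seq libraries of splenic mouse CD4+ T cells were used, 3 per group. Members and gene lists were chosen with earlier results of these data known. For replicates 2 and 3 the authors deposited counts per gene, made with fastp 0.21.0, HISAT2 2.1.0 and StringTie 2.1.5 on mm10 per the submitters' processing notes, which also name DESeq2 1.30.1. For the replicate 1 pair the authors deposited values read here as FPKM, made with FastQC and HISAT2 on GRCm38/mm10. Annotation is not given in the sources used here.

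Counts were fitted in R 4.3.3 with edgeR 4.0.16 (filterByExpr minimum count 10 and total 15, TMM, quasi-likelihood test, 2 libraries against 2, no covariate) over 16269 genes, with Benjamini-Hochberg adjustment over all of them. The fit was also run on simulated counts in which few genes were changed and both groups had the same spread. That setting differs from these data, so the simulation does not test the fit for them. The pair had no test and a pseudocount of 1. Genes named outside the 10 members were among those with the smallest p of their list at adjusted p under 0.05 (at most 5 a list, of which not all are named), or were the markers with the largest summed CPM, markers at 0, or the 3 nearest *Gzmb*. The rule for nearness did not fix the offset of the log scale. It was computed first with 0.5 CPM, which is reported, and then with edgeR's prior count of 2, after the genes had been seen. *Cd4*, *Ikzf2*, *Gm40768* and *Ltbp3* were named outside the rule, after their values were seen, as were the 5 further granzymes as a group. Alternatives were RLE, upper-quartile and library-total scaling, no filter, at least 10 counts in every library, a replicate block, DESeq2 1.42.0, other thresholds, each library left out, a pseudocount of 0.1, only genes at 1 FPKM or more, and, added after seeing the data, pair libraries scaled to the same sum.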

Additional observations from a re-analysis of the deposited data

Results flagged for a closer look

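Among the 8 granule genes called in the count table, 4 had the opposite direction in the replicate 1 pair. In scaled values of the count table both inhibitor libraries lay below both DMSO libraries for these 4. The same held for *Gzmm*, which did not pass, and the share of all genes so separated was not counted. The log2 ratio of FPKM + 1 in the pair was 1.505 for *Gzmb*, 0.54 for *Gzmc*, 1.06 for *Prf1* and 3.00 for *Nkg7*, beside log2 fold changes of −0.97, −2.97, −1.23 and −2.64 in the count table. The pseudocount sets the size of the pair's ratios for low genes, and with 0.1 in place of 1 that of *Gzmc* was 1.28 and that of *Prf1* 2.36. Of the 8, 6 were at 1 FPKM or more in both libraries of the pair, and 2 of these 6 were opposite, beside 35.5% of all 7234 called genes at that level, so the count is near that of all genes. *Gzmc* and *Prf1* were below 1 FPKM with DMSO. The difference between the batches was not tested.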

How the results depend on the processing

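In all settings that fitted them, the 8 called granule genes kept their direction and passed at an adjusted p under 0.05, and *Gzmm* did not pass. *Gzmc* was not tested with at least 10 counts in every library. With an absolute log2 fold change over 1 also required, 1 granule gene was higher, 4 were lower (without *Gzmb*, at −0.97) and 3799 of all genes were called in place of 10374, by construction of the threshold. With a library left out, 3 granule genes were higher and 5 lower each time, and 8731 to 10943 genes were called. The lone library of a group is then assumed to vary like the other group. *Gzmc* ranged from −3.74 (without MAPK13-IN-1 replicate 3) to −2.46 (without MAPK13-IN-1 replicate 2), and *Gzmb* from −1.24 to −0.75. In the pair, a pseudocount of 0.1 gave 2.36 for *Prf1* and 1.28 for *Gzmc*. *Gzmc* and *Gzmk*, with the fewest counts, are the members most limited by depth. Of the other lists, DESeq2 called 1 of the 2 CD8 genes and 0 neutrophil markers in place of 2 and 1, and 1 cytotoxic CD4 T cell gene higher in place of 2. It called 6 exocytosis genes higher and 4 lower in place of 7 and 5, and 2 glycosaminoglycan genes higher in place of 3.

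With the replicate number as a block (replicate block) 10645 genes were called, and 3 granule genes were higher and 5 lower. The SE of *Gzmb* was 0.0775 with the block and 0.125 without it, and that of *Gzma* 0.199 and 0.188. Over all genes tested, the differences between replicates 2 and 3 correlated at 0.00500 between the groups. A single value over all genes cannot exclude pairing by number. Whether same-numbered libraries share an origin is not given in the labels.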
